A study of Rattus norvegicus with 64 samples.

Results

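Matrix metalloproteinases (MMPs) and the tissue inhibitors of metalloproteinases (TIMPs) were followed in rat bladders reconstructed with a graft. The 10 genes were 7 MMPs (Mmp2, Mmp3, Mmp7, Mmp9, Mmp12, Mmp13 and Mmp14) and 3 inhibitors (Timp1, Timp2 and Timp3). They were found by matching the RefSeq transcript of each array probe to these symbols, and 10 of 10 were present, among 15715 named genes, on 11 of the 30367 probes tested. Mmp2 had 2 probes and each of the others had 1. All groups were male Wistar rats after hemicystectomy, the removal of a part of the bladder, and augmentation with about 1 cm2 of bladder acellular matrix (BAM), the bladder wall left after its cells are removed. In 4 groups BAM was unseeded. In 4 groups BAM carried adipose derived stem cells (ADSCs), which were syngeneic cells at the third passage from the retroperitoneal fat of male Wistar donors 10 weeks old. Donors and hosts were of the same strain, so transcripts of the seeded cells and of the host cells cannot be told apart. The age of the operated rats is not given in the sources used here. Reconstructed bladder wall was taken 7, 30, 90 or 180 days after surgery, and 8 arrays of 1 rat each were measured for each graft and day, 64 in all. The 8 arrays of a group were labelled as biological replicates. The comparisons asked whether seeding changed the healing wall at each day, and how the wall changed from one day to the next.

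MMPs are zinc-dependent endopeptidases that are made as inactive proenzymes and cut collagens, elastin, laminin, proteoglycans and other proteins of the matrix once activated. TIMPs occupy the active site of the active enzymes. In wounds these genes are known to be switched on by inflammatory cytokines and growth factors, in part through AP-1 transcription factors, and in a graft of acellular matrix their substrate is both the implanted scaffold and the newly laid collagen. The arrays measure transcript only, so neither proenzyme activation nor inhibition by TIMP protein is seen.

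All levels below are log2 values relative to the 75th percentile of the array, so 0 is the brightness below which 75% of the gene spots of that array lie, and they are not compared between probes. A probe was called changed at a limma adjusted p below 0.01 with a fold change above 1.5. In samples of whole wall, fewer cells of a type and less RNA per cell cannot be told apart. Each group was hybridized on 1 slide of its own, so slide and group cannot be told apart, and the arrays of days 7 and 30 were scanned on one date and those of days 90 and 180 on another, so scan date cannot be told apart from the step between day 30 and day 90. Between 73.3% and 95.6% of gene spots were well above background at days 7 and 30, and between 35.5% and 64.6% at days 90 and 180. The lowest level that was well above background averaged -7.31 to -7.02 in the groups of days 7 and 30 and -4.93 to -4.05 in those of days 90 and 180. The 75th percentile itself had a group median of 2667 intensity units in unseeded grafts at day 90 and of 1154 to 1451 in the other 7 groups. In 4 arrays the median correlation with the others of the group over all probes was below 0.95, namely unseeded day 7 replicate 7, seeded day 30 replicate 1 and unseeded day 90 replicates 5 and 8. The wall was checked against its markers, and in every group each smooth muscle gene (7 on the array) and urothelium gene (9 on the array) was well above background on at least 1 array.

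Most of the calls came with time. From day 30 to day 90, 6 of the 10 genes were lower in unseeded grafts (called among all probes: 44.7% in either direction, 9.49% lower) and 7 were lower in seeded grafts (28% and 10.3%). Mmp3, Mmp7, Mmp9, Mmp12, Mmp13 and Timp1 were lower in both, and Mmp14 was lower in seeded grafts. Timp2 was also called by the fit in unseeded grafts, but its probe was at the ceiling of the scanner on every array of both days and it is not counted here. The median difference of the 10 genes was -1.89 against 0.30 over all probes in unseeded grafts, and -1.67 against 0.11 over all probes in seeded grafts. Timp3 went the other way and was higher at day 90 than at day 30 in seeded grafts, the 1 member called higher in this step.

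Between the grafts, none of the 10 genes was called at day 7 (7.71% of all probes), at day 30 (1.67%) or at day 180 (2.42%), and 2 were called at day 90 (12.4%). At an unadjusted p below 0.01 with the same fold change, 1 gene passed at day 7 (Timp1), 0 at day 30 and 1 at day 180 (Mmp7). At an unadjusted p below 0.05 alone, 2 passed at day 7 (Mmp2 and Timp1), 2 at day 30 (Mmp7 and Timp3) and 2 at day 180 (Mmp7 and Mmp13). The 2 at day 90 were Timp3, higher in seeded grafts, and Timp2, whose level could not be read because its spots were saturated.

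**Figure D1:**
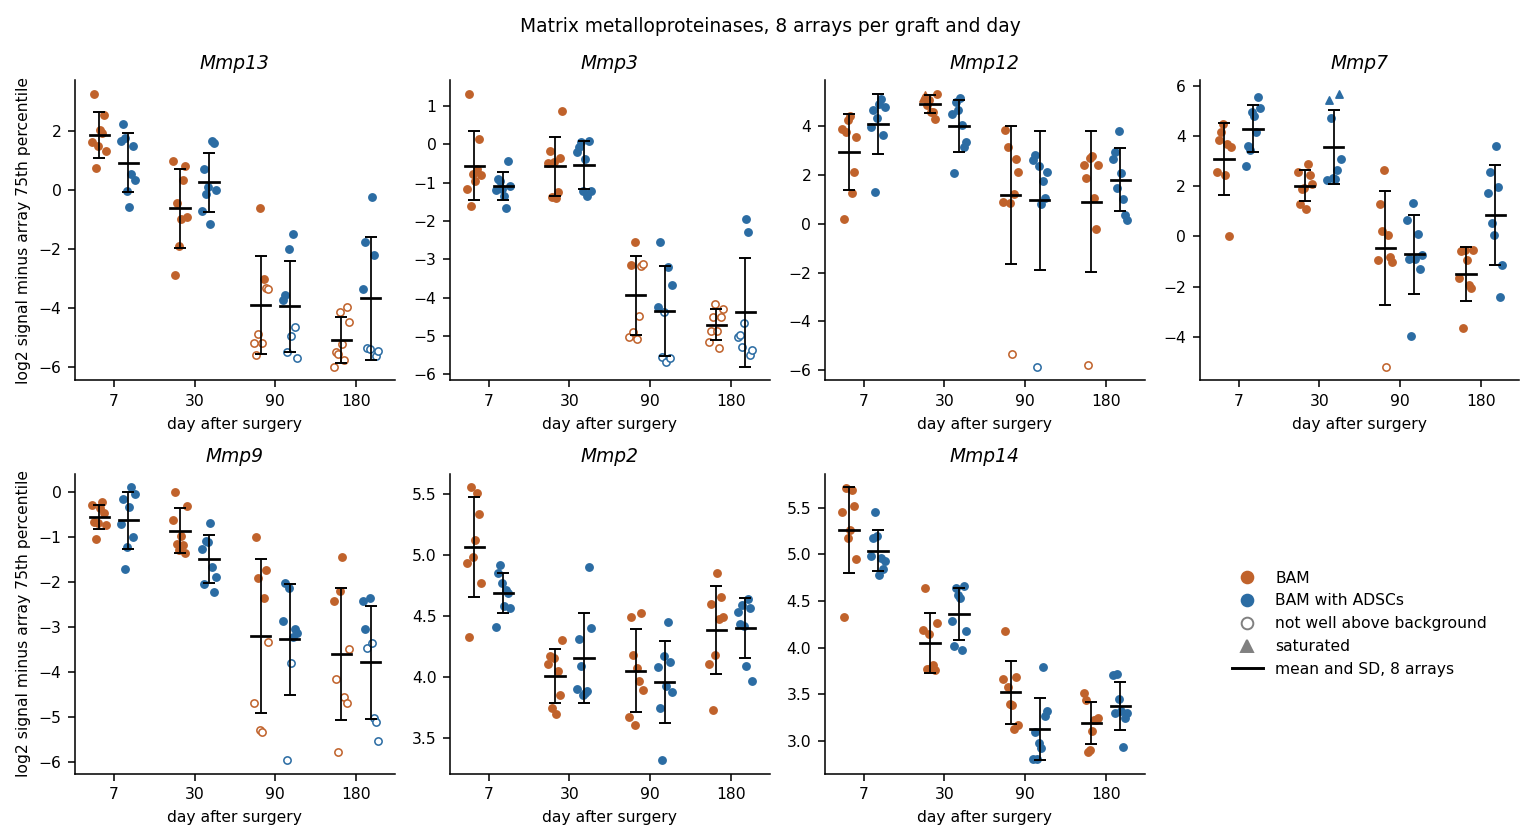
Level of each matrix metalloproteinase (log2 signal relative to the array's 75th percentile) on each array against day after surgery, orange for BAM and blue for BAM with ADSCs, open where the probe was not well above background and triangular where it was saturated, with black bars for mean and SD of 8 arrays. Mmp13, Mmp3, Mmp7 and Mmp9 sit lower at days 90 and 180 than at days 7 and 30, and 3 arrays of Mmp12 stand near -5.33 to -5.86, far under the rest of their groups.

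Mmp13, the interstitial collagenase of rodents, went from well above background in the first month to near or under the limit of detection at the end. In unseeded grafts its median level (lowest to highest of 8 arrays) was 1.78 (0.74 to 3.26) at day 7, -0.66 (-2.86 to 0.99) at day 30, -4.11 (-5.56 to -0.60) at day 90 and -5.35 (-5.98 to -3.96) at day 180. It was well above background on 8 of 8 arrays at days 7 and 30, on 2 at day 90 and on none at day 180. In seeded grafts it was 1.01 (-0.57 to 2.25) at day 7, 0.05 (-1.15 to 1.67) at day 30, -4.17 (-5.66 to -1.49) at day 90 and -4.35 (-5.60 to -0.22) at day 180, well above background on 8, 8, 4 and 4 arrays. Unseeded grafts were already lower at day 30 than at day 7, with a log2 difference of -2.48 (SE 0.66, adjusted p = 0.00403, 5.6-fold), with 7 of 8 day 7 arrays above every day 30 array. In seeded grafts the same step was -0.66 (SE 0.66, adjusted p = 0.450), which was not called, and the difference between the 2 grafts in this step was 1.82 (SE 0.94, adjusted p = 0.200), also not called. The call in unseeded grafts was lost without day 7 replicate 2 (-2.29, adjusted p = 0.0118), day 30 replicate 2 (-2.16, adjusted p = 0.0162) or day 30 replicate 4 (-2.30, adjusted p = 0.0115), and with quantile normalization (-2.45, adjusted p = 0.0126). From day 30 to day 90 Mmp13 fell in both grafts, with a log2 difference of -3.27 (SE 0.66, adjusted p = 2.37e-05) in unseeded grafts and -4.19 (SE 0.66, adjusted p = 6.05e-07) in seeded grafts, where the 2 days did not overlap. These differences were -2.40 and -2.92 with normexp background correction, and the unseeded one -3.88 with quantile normalization. No fold is given for this step, since most day 90 values of unseeded grafts and 4 of 8 of seeded grafts were not well above background. Against the background limit of day 180, Mmp13 in unseeded grafts at day 7 was at least 79.7-fold higher than at day 180 (fitted adjusted p = 1.66e-13). That limit sets the mean of the bright group against, on each dim array, the higher of the lowest signal well above background and the signal of the probe. At day 180 the seeded arrays spread from -5.60 to -0.22, 4 of 8 of them above every unseeded array, and the graft difference of 1.40 (SE 0.66, adjusted p = 0.308) was not called.

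Mmp3, stromelysin-1, which cuts proteoglycans, laminin and other proenzymes, was not called between day 7 and day 30 in either graft and then fell. In unseeded grafts it was -0.79 (-1.60 to 1.31) at day 7, -0.47 (-1.41 to 0.88) at day 30, -3.83 (-5.08 to -2.56) at day 90 and -4.69 (-5.31 to -4.17) at day 180. In seeded grafts it was -1.13 (-1.67 to -0.43) at day 7, -0.29 (-1.36 to 0.10) at day 30, -4.31 (-5.68 to -2.56) at day 90 and -5.0 (-5.48 to -1.95) at day 180. The day 30 and day 90 arrays did not overlap in either graft. The log2 difference was -3.36 (SE 0.45, adjusted p = 3.59e-09) in unseeded and -3.82 (SE 0.45, adjusted p = 4.52e-10) in seeded grafts, and -2.33 and -2.24 with normexp. At day 90 the probe was well above background on 2 unseeded and 4 seeded arrays, and at day 180 on 0 and 2, so many of the late values lie at the limit of detection and no fold is given for the step to day 90. In unseeded grafts Mmp3 at day 30 was at least 13.9-fold above day 180 (fitted adjusted p = 1.28e-11). The 4 early groups lay within -1.09 to -0.54 of mean level, with no neighbouring pair in that order called.

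Mmp12, the macrophage metalloelastase, had its highest median in unseeded grafts at day 30, when its probe was saturated on 2 arrays. Its levels in unseeded grafts were 3.66 (0.21 to 4.41) at day 7, 4.97 (4.29 to 5.32) at day 30, 1.68 (-5.33 to 3.83) at day 90 and 2.13 (-5.80 to 2.78) at day 180, and in seeded grafts 4.50 (1.31 to 5.10) at day 7, 4.27 (2.06 to 5.14) at day 30, 1.94 (-5.86 to 2.80) at day 90 and 1.77 (0.15 to 3.80) at day 180. The step from day 7 to day 30 in unseeded grafts was 1.96 (SE 0.97, adjusted p = 0.163), and it was not called although 7 of 8 day 30 arrays lay above every day 7 array. The log2 difference from day 30 to day 90 was -3.72 (SE 0.97, adjusted p = 0.000778, 13.1-fold) in unseeded grafts, where the 2 days did not overlap, and -3.03 (SE 0.97, adjusted p = 0.00816, 8.17-fold) in seeded grafts. Without unseeded day 90 replicate 5, on which Mmp12 was not well above background, the unseeded difference was -2.79 (adjusted p = 0.00600), still called. In seeded grafts the difference without day 90 replicate 3 was not called (-2.06, adjusted p = 0.0505). The call was also lost with quantile normalization (-3.12, adjusted p = 0.0184), with median centring (-2.80, adjusted p = 0.0120), in a fit of the 2 groups alone (-3.03, adjusted p = 0.0240), and without day 30 replicate 1, 3, 4, 5 or 6 or day 90 replicate 5 or 7, with differences of -2.87 to -3.04 and adjusted p of 0.0115 to 0.017.

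On 3 of the 64 arrays Mmp12 was not well above background, 1 in each of 3 late groups. These were seeded day 90 replicate 3 (-5.86), unseeded day 90 replicate 5 (-5.33) and unseeded day 180 replicate 3 (-5.80), while the other 7 arrays of each of these groups lay between 0.79 and 2.80, between 0.85 and 3.83, and between -0.22 and 2.78. On each of the 3 the mean level of 12 macrophage markers was the lowest of its group, at -2.68, -1.29 and -1.51, and so was that of 8 neutrophil markers, at -5.45, -4.89 and -5.12. Other lists were the lowest of their group on some of the 3. Those were the fibroblast list on the first and the third, the T cell, B cell and mast cell lists on the first and the second, the endothelium and adipocyte lists on the first and the urothelium list on the second. Mmp9 on them was -5.96, -5.33 and -5.78, and Mmp7 was -3.97, -5.18 and -3.66. Both were the lowest of their group on each of the 3. In the same arrays Mmp2 was 3.31, 4.07 and 3.72, the lowest value of its group on the first and the third. Mmp14 was also the lowest of its group on the first and the third, Timp1 on the first and Mmp3 on the second. What set these 3 rats apart was not tested.

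Mmp7, matrilysin, a small MMP known from glandular and other epithelia, varied widely between rats of the same group. In unseeded grafts it was 3.63 (0.03 to 4.46) at day 7, 1.99 (1.1 to 2.86) at day 30, -0.36 (-5.18 to 2.65) at day 90 and -1.31 (-3.66 to -0.54) at day 180, and in seeded grafts 4.47 (2.81 to 5.54) at day 7, 2.87 (2.24 to 5.67) at day 30, -0.82 (-3.97 to 1.32) at day 90 and 1.13 (-2.41 to 3.60) at day 180. Seeded grafts had the higher median at days 7, 30 and 180, with graft differences of 1.20 (SE 0.74, adjusted p = 0.295), 1.53 (SE 0.74, adjusted p = 0.182) and 2.35 (SE 0.74, adjusted p = 0.0496), and the lower median at day 90, with -0.25 (SE 0.74, adjusted p = 0.801). None was called. At day 180, 6 of 8 seeded arrays lay above every unseeded array, and the 95% interval of the difference ran from 0.86 to 3.84. The graft difference at day 180 minus that at day 90 was 2.61 (SE 1.05, adjusted p = 0.0651), and it was called without the 4 arrays that stand apart (3.48, adjusted p = 0.00474). From day 30 to day 90 Mmp7 fell by 4.26 on the log2 scale in seeded grafts (SE 0.74, adjusted p = 4.31e-06, 19.2-fold) with no overlap, and the probe was saturated on 2 of the day 30 arrays. In unseeded grafts the step was -2.48 (SE 0.74, adjusted p = 0.00318, 5.57-fold), and the call was lost without day 90 replicate 5 (-1.80, adjusted p = 0.0215), without the 4 arrays that stand apart (-1.60, adjusted p = 0.0400) and in a fit of the 2 groups alone (-2.48, adjusted p = 0.0117).

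Mmp13, Mmp12, Mmp3 and Mmp7 lie in 1 cluster on rat chromosome 8 of the RefSeq assembly GRCr8, in this order, with Mmp1, Mmp10, Mmp8, Mmp27 and Mmp20 between Mmp3 and Mmp7. Their promoters are shown because the 4 genes fell together between day 30 and day 90. RefSeq promoters of that build were at hand for 7 of the 10 members. The lines give the 150 bases before the start of the gene, 5′ to 3′ on the strand of the gene, with the AP-1 motif in capitals (TGACTCA or its reverse complement TGAGTCA, searched on both strands). The windows are Mmp13 chr8:12782679-12782828, Mmp12 chr8:12866502-12866651, Mmp3 chr8:12925131-12925280 and Mmp7 chr8:13132893-13133042, all on the plus strand.
Mmp13: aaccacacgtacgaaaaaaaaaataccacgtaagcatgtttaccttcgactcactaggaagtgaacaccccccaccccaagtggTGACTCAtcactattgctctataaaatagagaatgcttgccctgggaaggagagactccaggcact
Mmp12: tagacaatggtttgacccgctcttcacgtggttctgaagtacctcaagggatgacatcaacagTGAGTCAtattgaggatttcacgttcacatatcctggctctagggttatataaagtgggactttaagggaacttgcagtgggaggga
Mmp3: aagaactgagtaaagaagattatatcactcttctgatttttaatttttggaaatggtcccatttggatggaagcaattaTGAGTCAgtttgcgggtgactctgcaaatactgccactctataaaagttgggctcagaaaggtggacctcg
Mmp7: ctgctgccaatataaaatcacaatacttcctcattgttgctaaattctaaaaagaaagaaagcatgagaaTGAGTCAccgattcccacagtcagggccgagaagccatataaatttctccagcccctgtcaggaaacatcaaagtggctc
Each of the 4 held the motif once in a window of 300 bases around the start, with its first base at -66 in Mmp13, -87 in Mmp12, -71 in Mmp3 and -80 in Mmp7, counted from the first base of the gene. Of 33469 rat promoters of the same length 4.63% held it. Each also had a TATAAA (14.2% of all promoters), first base at -47, -39, -32 and -43, and Mmp7 had a further one at -140, none of them overlapping the AP-1 motif. The promoters of Timp1 and Timp3 are set beside them, because Timp1 fell with these genes in both grafts and Timp3 rose in this step in seeded grafts. The windows are Timp1 chrX:3771123-3771272 and Timp3 chr7:19459559-19459708, both on the minus strand.
Timp1: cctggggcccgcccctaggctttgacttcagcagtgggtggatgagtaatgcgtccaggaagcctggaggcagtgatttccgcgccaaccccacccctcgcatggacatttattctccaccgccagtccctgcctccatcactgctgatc
Timp3: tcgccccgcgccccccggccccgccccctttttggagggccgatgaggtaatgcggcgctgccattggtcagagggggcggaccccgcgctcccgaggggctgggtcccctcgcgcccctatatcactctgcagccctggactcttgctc
The exact motif was found in neither of these windows nor in that of Timp2. Variants of it, such as the tgagtaa in the Timp1 line, were not searched. The PEA3 motif AGGAAG, held by 34.5% of all promoters, was found once in Mmp13, Mmp3 and Mmp7 and 2 times in Timp1. A match is a run of letters and not a measured binding site. The 4 genes of the cluster were chosen by their fall, and promoters of its other genes are not shown. A link between the motif and the fall was not tested.

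The gelatinases Mmp9 and Mmp2, which cut denatured collagen and basement membrane collagen, behaved differently. Mmp9, known from neutrophils and macrophages, was in unseeded grafts -0.56 (-1.04 to -0.22) at day 7, -1.06 (-1.36 to 0.01) at day 30, -2.83 (-5.33 to -0.99) at day 90 and -3.83 (-5.78 to -1.45) at day 180 and in seeded grafts -0.52 (-1.71 to 0.11) at day 7, -1.46 (-2.22 to -0.69) at day 30, -3.08 (-5.96 to -2.03) at day 90 and -3.41 (-5.52 to -2.35) at day 180. It was well above background on every array at days 7 and 30 and on 4, 6, 3 and 3 arrays of unseeded day 90, seeded day 90, unseeded day 180 and seeded day 180. The log2 difference from day 30 to day 90 was -2.34 (SE 0.53, adjusted p = 0.000115) in unseeded grafts and -1.78 (SE 0.53, adjusted p = 0.00428) in seeded grafts, and -1.62 and -1.13 with normexp. The days overlapped in both, and no fold is given because part of the day 90 values were not well above background. The seeded call was lost without day 90 replicate 3 (-1.40, adjusted p = 0.0224) or day 30 replicate 5 (-1.67, adjusted p = 0.0104), and with quantile normalization (-1.82, adjusted p = 0.0250) or median centring (-1.55, adjusted p = 0.0105).

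Mmp2, a gelatinase made mainly by fibroblasts and other mesenchymal cells, stayed well above background on all 64 arrays. On its brighter probe it was 5.05 (4.33 to 5.55) at day 7, 4.07 (3.69 to 4.30) at day 30, 4.02 (3.61 to 4.52) at day 90 and 4.48 (3.72 to 4.85) at day 180 in unseeded grafts and 4.70 (4.41 to 4.91) at day 7, 3.99 (3.85 to 4.90) at day 30, 4.00 (3.31 to 4.45) at day 90 and 4.48 (3.97 to 4.63) at day 180 in seeded grafts. From day 7 to day 30 it fell in unseeded grafts by 1.06 (SE 0.16, adjusted p = 6.79e-07, 2.08-fold) on the log2 scale, and the 2 days did not overlap. The second probe gave -1.07 (SE 0.18, adjusted p = 1.14e-05). In seeded grafts the step was -0.53 (SE 0.16, adjusted p = 0.0103), which was not called. It was called without day 30 replicate 7 (-0.64, adjusted p = 0.00185) and with quantile normalization, median centring or a percentile over detected probes (-0.60 to -0.78). The difference of this step between the grafts was 0.52 (SE 0.22, adjusted p = 0.126) and was not called. The probes disagreed for the step from day 30 to day 90 in seeded grafts, where the brighter gave -0.19 (SE 0.16, adjusted p = 0.321) and the dimmer -0.76 (SE 0.18, adjusted p = 0.000524). From day 90 to day 180 the brighter probe gave 0.33 in unseeded and 0.44 in seeded grafts and the dimmer -0.36 and 0.16, none of them called and of opposite sign in unseeded grafts.

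Mmp14, the membrane-type MMP that activates the Mmp2 proenzyme at the cell surface together with Timp2, was highest at day 7 and about as low at day 180 as at day 90, with little scatter. It was 5.36 (4.33 to 5.71) at day 7, 3.98 (3.76 to 4.64) at day 30, 3.48 (3.13 to 4.18) at day 90 and 3.22 (2.88 to 3.52) at day 180 in unseeded grafts and 4.97 (4.78 to 5.46) at day 7, 4.41 (3.98 to 4.66) at day 30, 3.03 (2.81 to 3.79) at day 90 and 3.31 (2.93 to 3.72) at day 180 in seeded grafts. From day 7 to day 30 the difference was -1.22 (SE 0.16, adjusted p = 2.45e-08, 2.32-fold) in unseeded grafts and -0.68 (SE 0.16, adjusted p = 0.000973, 1.61-fold) in seeded grafts, where the days did not overlap. From day 30 to day 90 it was -1.23 (SE 0.16, adjusted p = 4.34e-09, 2.35-fold) in seeded grafts, again without overlap. In unseeded grafts that step passed the adjusted p but not the fold threshold, at -0.52 (SE 0.16, adjusted p = 0.00309, 1.44-fold), and passed both without day 90 replicate 2 (-0.62, adjusted p = 0.000548) and with quantile normalization (-0.63, adjusted p = 0.000310). The difference between the grafts in this step was -0.71 (SE 0.22, adjusted p = 0.0148) and was not called. It was called without unseeded day 30 replicate 2 (-0.79, adjusted p = 0.00787) or seeded day 90 replicate 6 (-0.80, adjusted p = 0.00652). From day 7 to day 180 Mmp14 was 4.2-fold lower in unseeded and 3.18-fold lower in seeded grafts (adjusted p = 5.02e-17 and 7.67e-14).

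**Figure D2:**
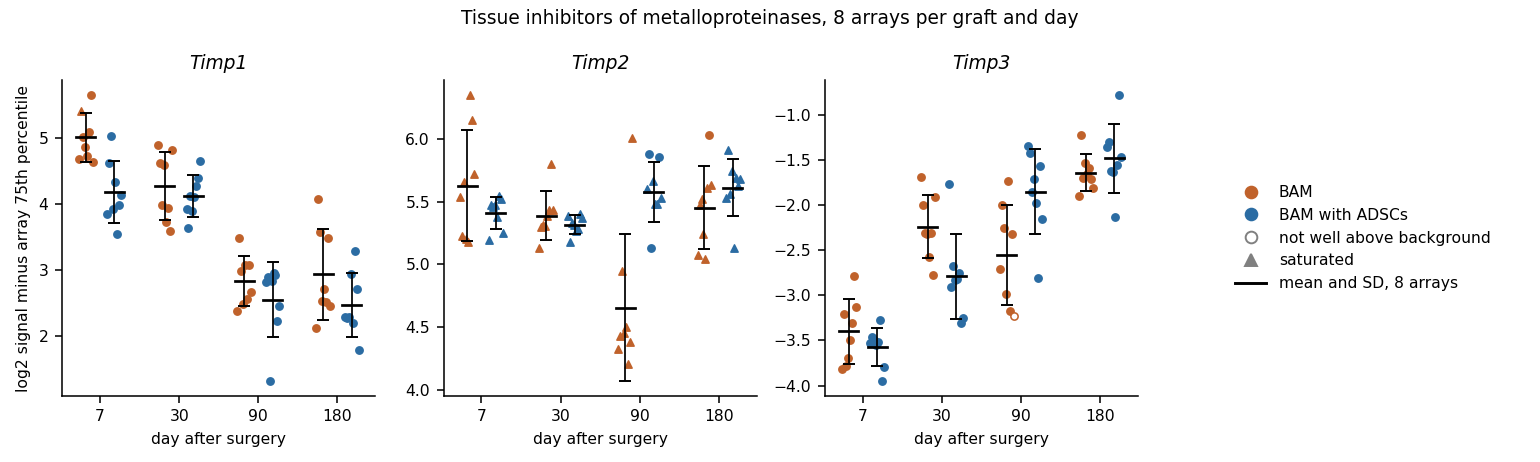
Level of each inhibitor (log2 signal relative to the array's 75th percentile) on each array against day after surgery, orange for BAM and blue for BAM with ADSCs, open where not well above background and triangular where saturated, with black bars for mean and SD of 8 arrays. Timp1 declines and Timp3 climbs with time, and 60 of 64 Timp2 values are saturated.

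Timp1, the inhibitor known to be induced in wounds and fibrosis, was lower at day 90 than at day 30 in both grafts, as were Mmp3, Mmp7, Mmp9, Mmp12 and Mmp13. It was 4.93 (4.64 to 5.65) at day 7, 4.29 (3.59 to 4.89) at day 30, 2.83 (2.38 to 3.49) at day 90 and 2.63 (2.12 to 4.08) at day 180 in unseeded grafts and 4.06 (3.55 to 5.02) at day 7, 4.11 (3.65 to 4.64) at day 30, 2.83 (1.32 to 2.96) at day 90 and 2.29 (1.80 to 3.29) at day 180 in seeded grafts. At day 7 the graft difference was -0.83 (SE 0.24, adjusted p = 0.0104, 1.77-fold) and was not called, while 7 of 8 seeded arrays lay below every unseeded array. The difference relative to the median of all probes was -0.66. With dim probes left out of the table the adjusted p was 0.00769, and the call was also made without seeded replicate 2 or 3 or unseeded replicate 1, 5 or 8, with differences of -0.87 to -0.95 and adjusted p of 0.00351 to 0.00984. Timp1 then fell from day 30 to day 90 in both grafts without overlap, by 1.43 (SE 0.24, adjusted p = 8.04e-07, 2.69-fold) in unseeded and 1.57 (SE 0.24, adjusted p = 3.17e-07, 2.96-fold) in seeded grafts on the log2 scale. All 64 values were well above background, so the fall did not rest on the limit of detection.

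Timp3, the inhibitor that binds to the matrix and also blocks ADAM proteases, rose with time. It was -3.40 (-3.81 to -2.78) at day 7, -2.31 (-2.78 to -1.70) at day 30, -2.51 (-3.23 to -1.74) at day 90 and -1.68 (-1.91 to -1.23) at day 180 in unseeded grafts and -3.52 (-3.95 to -3.27) at day 7, -2.83 (-3.31 to -1.77) at day 30, -1.78 (-2.81 to -1.35) at day 90 and -1.51 (-2.14 to -0.78) at day 180 in seeded grafts. It was well above background on every array but 1, of unseeded day 90. From day 7 to day 30 it rose by 1.16 (SE 0.20, adjusted p = 7.44e-06, 2.24-fold) in unseeded grafts without overlap and by 0.78 (SE 0.20, adjusted p = 0.00253, 1.72-fold) in seeded grafts. The second rise that was called lay at a different step in each graft. In seeded grafts Timp3 rose by 0.93 (SE 0.20, adjusted p = 8.35e-05, 1.91-fold) from day 30 to day 90, while in unseeded grafts that step was -0.31 (SE 0.20, adjusted p = 0.162), and the next one, from day 90 to day 180, was 0.91 (SE 0.20, adjusted p = 0.000262, 1.88-fold). The test of the difference itself, the graft effect at day 90 minus that at day 30, gave 1.25 (SE 0.28, adjusted p = 0.000776). From day 90 to day 180 seeded grafts moved by 0.37 (SE 0.20, adjusted p = 0.215), which was not called. The graft effect at day 180 minus that at day 90 was -0.53 (SE 0.28, adjusted p = 0.145), also not called. A difference between the grafts in that last step is therefore not shown. At day 30 Timp3 was lower in seeded grafts by 0.55 without a call (adjusted p = 0.0659), and it was called without the 4 arrays that stand apart (-0.70, adjusted p = 0.00651). At day 90 it was higher in seeded grafts by 0.70 (SE 0.20, adjusted p = 0.00570, 1.62-fold), with 4 of 8 seeded arrays above every unseeded one. By day 180 the grafts differed by 0.16 (SE 0.20, adjusted p = 0.887), with a 95% interval of -0.23 to 0.56. From day 7 to day 180 Timp3 rose 3.38-fold in unseeded and 4.26-fold in seeded grafts (adjusted p = 2.23e-11 and 7.58e-14).

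The day 90 call of Timp3 was a narrow one. It was lost with normexp background correction (0.39, adjusted p = 0.0915), in a fit of the 2 groups alone (0.70, adjusted p = 0.0391), and without seeded replicate 1, 2 or 7 or unseeded replicate 1, 4, 6 or 8, with differences of 0.60 to 0.67 and adjusted p of 0.0106 to 0.0234. The direction was the same in each. Relative to the median of all probes, which was -0.27 in this comparison, the difference was 0.97. The rise from day 7 to day 30 in seeded grafts was lost without day 30 replicate 1 (0.63, adjusted p = 0.0144) and with quantile normalization (0.57, adjusted p = 0.0408), median centring (0.54, adjusted p = 0.0281) or normexp (0.51, adjusted p = 0.0161). With normexp the unseeded rise from day 90 to day 180 kept its adjusted p but not its fold (0.54, adjusted p = 0.00837).

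Timp2, which both inhibits MMPs and takes part in the activation of the Mmp2 proenzyme, could not be measured. Its probe was saturated on 60 of 64 arrays, on all but 3 of seeded day 90 and 1 of unseeded day 180. On the unscaled signal the 8 unseeded arrays of day 90 read 57409 to 61848 intensity units and the 8 seeded arrays 26833 to 59647, so the unseeded arrays were not the dimmer ones before scaling. After scaling, unseeded day 90 was the lowest group, at 4.44 (4.20 to 6.01), and the fit called Timp2 at day 90 between the grafts, with a scaled difference of 0.92 (SE 0.16, adjusted p = 8.57e-06), and in unseeded grafts from day 30 to day 90, with -0.73 (SE 0.16, adjusted p = 7.77e-05), and from day 90 to day 180, with 0.80 (SE 0.16, adjusted p = 9.03e-05). These calls compare a ceiling divided by the 75th percentile, which was highest in unseeded day 90, and no fold or direction of Timp2 is given. Actb, Ppia and Rplp0, housekeeping genes that were saturated on all 8 unseeded arrays of day 90, showed a graft difference of 1.04, 1.02 and 1.15 by the same scale.

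**Figure D3:**
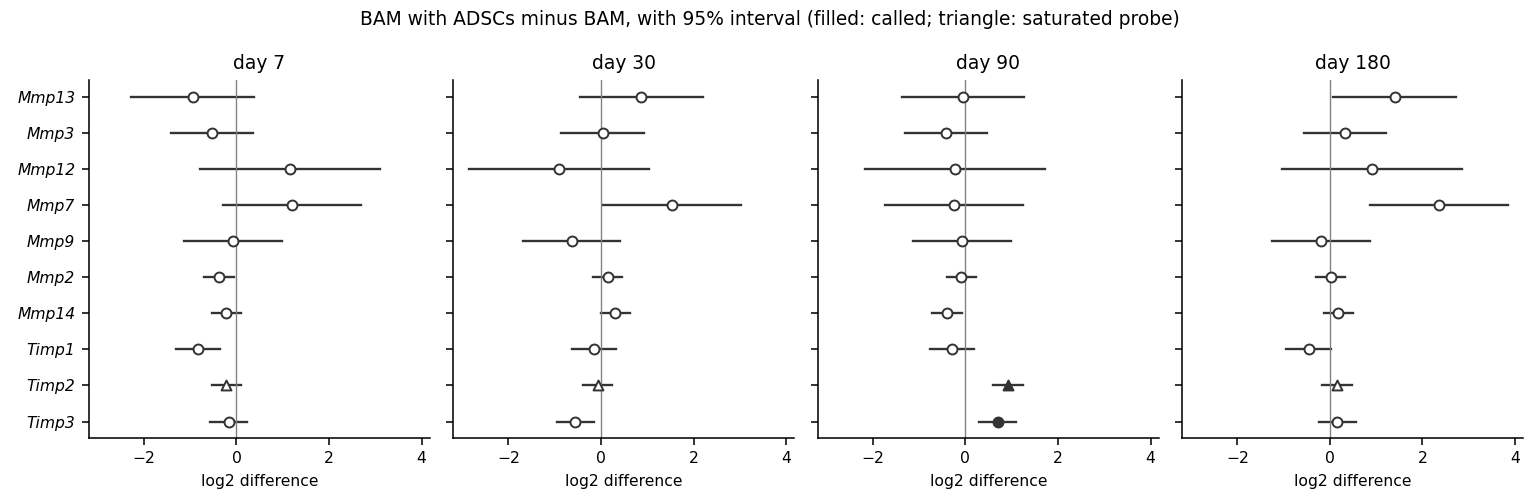
Log2 difference of each member between BAM with ADSCs and BAM (points, filled where called) with its 95% interval (lines) at days 7, 30, 90 and 180, with triangles for Timp2, whose probe was saturated. Timp3 and Timp2 at day 90 are the filled points, and the intervals of Mmp12, Mmp7 and Mmp13 are the widest.

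No member had groups without overlap in a comparison of grafts, where 4.46%, 1.93%, 3.16% and 1.98% of all probes did at days 7, 30, 90 and 180. The intervals reflect the scatter between arrays, with 1 spread of a probe shared by all 8 groups. An effect of the slide is not in them, so they do not bound the graft difference. For Mmp2 and Mmp14 at day 180 they ran from -0.30 to 0.34 and from -0.13 to 0.49, while for Mmp12 at the same day they ran from -1.04 to 2.86. The median of the 10 differences was -0.22 against -0.16 over all probes at day 7, -0.02 against 0.11 over all probes at day 30, -0.16 against -0.27 over all probes at day 90 and 0.17 against 0.06 over all probes at day 180. Over the 6 pairs of days and 10 genes, 3 of 60 differences of the graft effect were called, those of Timp3 between days 30 and 90 and of Timp2 between day 90 and days 7 and 30. Over all probes the share called was 0.985% for day 30 minus day 7, 5.82% for day 90 minus day 7, 8.44% for day 180 minus day 7, 9.96% for day 90 minus day 30, 2.48% for day 180 minus day 30 and 9.75% for day 180 minus day 90.

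Between days the first step called 4 members in unseeded grafts (8.63% of all probes) and 2 in seeded grafts (8.04%), with Mmp14 lower and Timp3 higher in both. The last step, from day 90 to day 180, called Timp2 and Timp3 in unseeded grafts (9.36%) and none of the 10 in seeded grafts (4.13%), where Mmp2 and Mmp7 passed an unadjusted p below 0.05. Members whose days did not overlap were 2 and 1 for the first step, 3 and 5 for the second and 0 and 0 for the last, in unseeded and seeded grafts. Over all probes the shares without overlap were 6.11% and 7.91%, 31.7% and 14.6%, and 3.78% and 3.15%. The 2 grafts were measured on separate arrays, and neither served as the control of the other in these steps.

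Ordered by mean level over the 8 groups of graft and day, few neighbours differed. For Mmp13, Mmp3, Mmp9 and Timp1 the 4 groups of days 7 and 30 stood above the 4 groups of days 90 and 180, and the only neighbouring pair that was called in that order lay between them. For Mmp14 the pair of seeded day 7 and seeded day 30 was called. For Mmp2, Mmp7, Mmp12 and Timp3 no neighbouring pair was called, so their order of groups is a gradient in which adjacent groups were not told apart.

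**Figure D4:**
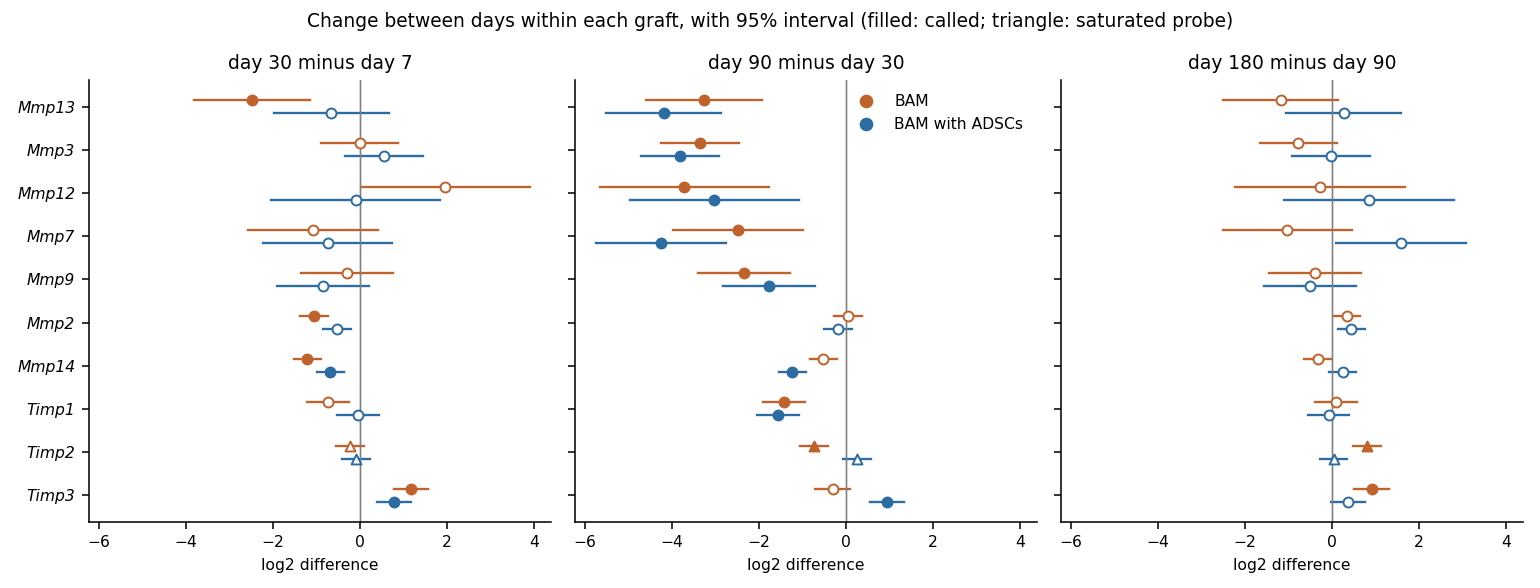
Log2 difference of each member between successive days within BAM (orange) and BAM with ADSCs (blue), points filled where called, with 95% intervals and triangles for the saturated Timp2 probe. The step from day 30 to day 90 holds most filled points, between -4.26 and -1.23 for the genes that were lower, leaving out the saturated Timp2.

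Of 14 other MMPs on the array, 2 were lower in unseeded and 2 in seeded grafts from day 7 to day 30, and 0 and 2 were higher. Over all probes 8.63% and 8.04% were called in this step. Mmp8, the collagenase of neutrophils, differed by -4.76 in unseeded grafts, where it was well above background on 8 arrays at day 7 and on none at day 30, and was at least 15.3-fold higher at day 7. In seeded grafts it fell by 2.67 on the log2 scale and was well above background on 3 arrays at day 30. Mmp23 fell by 1.26 and 0.68 on the log2 scale. Mmp15, a membrane-type MMP, was well above background throughout and lower in seeded grafts at day 7 (-0.83) and day 90 (-1.03, with 4 unseeded arrays saturated) and higher at day 180 (0.85). Mmp19 was lower in seeded grafts at day 30 (-0.93). Mmp1 was lower in seeded grafts at days 7 and 90 by the fit. It was well above background on no seeded array of these days, on 6 unseeded arrays at day 7 and on 1 at day 90. No difference at day 90 is read from it.

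From day 30 to day 90, 44.7% of all probes were called in unseeded grafts and 28% in seeded grafts. Of the 14 other MMPs, 8 were higher and 1 lower in unseeded grafts, and 4 higher and 1 lower in seeded grafts. Their median difference was 0.94 and 0.46 against 0.30 and 0.11 over all probes. Most of the higher calls were of genes near background. Mmp21, Mmp27, Mmp20 and Mmp8 in unseeded grafts, and Mmp21 and Mmp20 in seeded grafts, were called higher at day 90 while not well above background on any array of day 90 (Mmp1 was so on 1), and the lowest level well above background rose over the same step. No increase is read from them. Mmp16, a membrane-type MMP well above background on 7 and 8 arrays of the 2 day 90 groups, rose by 0.89 and 1.03. Mmp19 fell by 2.19 in unseeded grafts and Mmp10, stromelysin-2, by 3.13 in seeded grafts. Among the other inhibitors, Timp4 rose by 1.09 and 1.70 and A2m, a broad protease inhibitor, fell by 1.35 and 0.85.

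Other genes that act on the MMP system were followed over the step from day 30 to day 90. Over all probes 44.7% were called in unseeded grafts (9.49% lower) and 28% in seeded grafts (10.3% lower) in this step. The median over all probes was 0.30 in unseeded and 0.11 in seeded grafts. Of 12 inducers of MMP transcription, 5 were lower and 0 higher in each graft, with a median of -0.72 in unseeded and -0.51 in seeded grafts. The cytokine genes Il1b and Tnf fell by 2.39 and 2.64 in unseeded grafts and by 2.91 and 2.68 in seeded grafts on the log2 scale. Of 7 genes of the plasminogen system, whose product plasmin can activate several proenzymes, 1 were higher and 3 lower in unseeded grafts, and 0 and 6 in seeded grafts, with Serpine2 at -2.78 and -2.41. Of 8 cathepsins, 0 were higher and 6 lower in unseeded grafts, and 0 and 2 in seeded grafts, with Ctsk, a collagen-cutting cathepsin, at -1.85 and -1.75 and Ctss at -1.64 and -0.98. Of 11 ADAM and ADAMTS proteases, 1 were higher and 3 lower in unseeded grafts, and 0 and 5 in seeded grafts, with Adam19 at -1.38 and -1.05. Of 6 activators and binding partners, 2 were higher and 2 lower in unseeded grafts, and 0 and 2 in seeded grafts, with Cd44, which can hold Mmp9 at the cell surface, at -1.49 and -0.93. Of 11 substrates, 0 were higher and 5 lower in unseeded grafts, and 0 and 3 in seeded grafts, with Spp1 (osteopontin) at -3.58 and -3.48 and Fn1 (fibronectin) at -1.88 and -1.73.

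At day 7, where 7.71% of all probes were called, the seeded grafts had lower levels of 2 inducers, Il6 (-2.20) and Osm (-0.89). Lcn2, the lipocalin that binds Mmp9, was also lower (-4.45). Of 11 substrates 1 was lower, the basement membrane collagen gene Col4a1 (-0.75), and of 11 ADAM and ADAMTS proteases 2 were lower, Adamts15 (-0.74) and Adam19 (-0.59). In the plasminogen system Plg was lower at days 7 (-0.74) and 90 (-0.70). At day 30 and day 180 no gene of the 8 pathway lists was called between grafts other than Mmp19 and Mmp15. At day 90 the calls of Ctsb, Col1a1 and Col1a2 as higher rested on probes that were saturated on 7 or 8 of the unseeded arrays, and a second Col1a1 probe had the opposite sign. From day 7 to day 30 Lcn2 (-4.68), Il1b (-2.23), Adamts12 (-1.76) and Col4a1 (-1.75) fell in unseeded grafts, while Ctsk rose (1.30). In seeded grafts Adamts12 (-1.0) fell and Furin, a convertase that cleaves the Mmp14 proenzyme, rose (0.89).

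Markers of the cells that could carry these transcripts were followed over the step from day 30 to day 90. Over all probes 44.7% were called in unseeded grafts (9.49% lower) and 28% in seeded grafts (10.3% lower). The marker lists did not all move. The summed linear level of 12 macrophage markers (in units of the 75th percentile, over 32 arrays of each pair of days) was 74.8 to 190.4 at days 7 and 30 and 13.8 to 126 at days 90 and 180. From day 30 to day 90, 8 of the 12 were lower and 1 (Marco, not well above background on any array of either day) higher in unseeded grafts, and 5 lower and 0 higher in seeded grafts. The sum of 8 neutrophil markers was 0.741 to 95.3 at days 7 and 30 and 0.205 to 24.3 at days 90 and 180, with 1 higher and 0 lower in unseeded and 0 higher and 4 lower in seeded grafts, the higher one (Elane) not well above background on any array of day 30 or day 90. Up to 4 of the 8 neutrophil markers in a group of days 90 and 180 were not well above background on any array. The sum of 8 fibroblast markers was 71.5 to 134 at days 7 and 30 and 45.7 to 145 at days 90 and 180, and 0 were higher and 3 lower in unseeded grafts, and 1 and 2 in seeded grafts. That of 7 smooth muscle markers was 19.4 to 147 at days 7 and 30 and 97 to 339 at days 90 and 180, and 5 were higher and 0 lower in unseeded grafts, and 6 and 0 in seeded grafts. Of 9 urothelium markers 0 were higher and 0 lower in unseeded grafts, and 1 and 0 in seeded grafts in that step, and 7 were higher in seeded than in unseeded grafts at day 7. At day 7, 2 of 8 neutrophil markers were lower in seeded grafts, and 7.71% of all probes were called between the grafts. In the step from day 30 to day 90, of 6 endothelial markers 2 were higher and 0 lower in unseeded grafts, and 1 and 0 in seeded grafts. Of 6 T cell markers 0 were higher and 2 lower in unseeded grafts, and 0 and 1 in seeded grafts. Of 5 skeletal muscle markers 4 were higher and 0 lower in unseeded grafts, and 1 and 0 in seeded grafts. Of 5 adipocyte markers 1 were higher and 1 lower in unseeded grafts, and 0 and 1 in seeded grafts. Mast cell markers (5 on the array) had 1 lower in each graft, and B cell markers (2 on the array) none called. Of 9 housekeeping genes, several of them saturated, 0 were higher and 5 lower in unseeded grafts, and 0 and 1 in seeded grafts. The part of these shifts in the MMP and TIMP results was not tested.

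**Figure D5:**
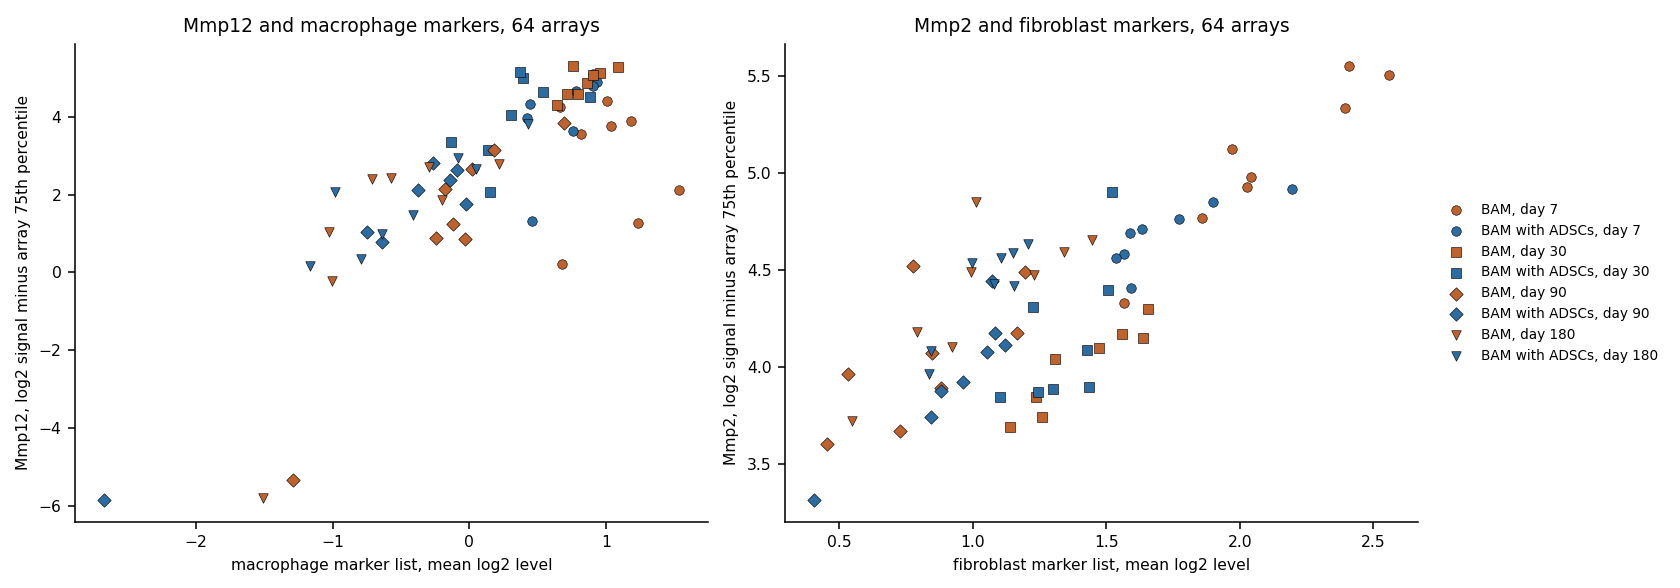
Left, level of Mmp12 against the mean log2 level of 12 macrophage markers, and right, level of Mmp2 against that of 8 fibroblast markers, on 64 arrays, with colour for the graft and marker shape for the day. The 3 arrays on which Mmp12 was not well above background have the lowest macrophage level of their groups, and Mmp2 climbs with the fibroblast level within each group.

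Within single groups of 8 rats, as a description without a test, Mmp12 followed the macrophage markers. Pearson's r between the level of Mmp12 and the mean log2 level of the list had a median of 0.76 over the 8 groups (range -0.09 to 0.98), and Spearman's rho a median of 0.73. Over deviations from the group means r was 0.79 on 64 arrays and 0.58 on the 61 arrays with Mmp12 above background. For Mmp9 and the macrophage list the median r was 0.76 (0.48 to 0.90). With the neutrophil list the median r was 0.27 (-0.60 to 0.46) for Mmp9 and -0.01 (-0.75 to 0.61) for Mmp12. It was 0.61 (-0.24 to 0.82) for Mmp3, 0.59 (-0.43 to 0.82) for Mmp7 and 0.43 (0.04 to 0.79) for Mmp13. Mmp2 followed the fibroblast list, with a median r of 0.86 (0.62 to 0.96), as did Timp1 (0.76, 0.21 to 0.90) and Mmp14 (0.60, -0.10 to 0.94). The correlated values share the array, its 75th percentile and its background.

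The genes most like each member over the 64 arrays, among 11157 other genes well above background on at least 32 arrays, were Spp1 (r = 0.97, 0.97 within groups) and Cybb (0.94, 0.93) for Mmp12 and Olr1 (r = 0.93, 0.88 within groups) and Itgam (0.93, 0.84) for Mmp9. The first value is Pearson's r over all arrays, which share the 8 groups, and the second is that of the deviations from group means. For Mmp2 they were Gpx7 (r = 0.84, 0.60 within groups) and Mmp23 (0.84, 0.70) and for Mmp14 Adamts7 (r = 0.94, 0.55 within groups) and Cthrc1 (0.93, 0.46). Among the closest to Timp1 was Bmper (r = 0.91, 0.70 within groups). Mmp3 was most like Aspm (r = 0.94, 0.67 within groups) and Aurka (0.93, 0.65), both genes of mitosis, and Mmp13 most like Nuf2 (r = 0.91, 0.64 within groups) and Plin2 (0.91, 0.59). Of the 64 arrays, Mmp3 was well above background on 40, Aspm on 35 and Aurka on 61. Mmp13 was so on 42, Nuf2 on 34 and Plin2 on 64. Values at the limit of detection therefore enter these r. Mmp7 was most like Ggh (r = 0.87, 0.59 within groups) and Anxa1 (0.87, 0.70) and Timp3 most like Anxa11 (r = 0.88, 0.34 within groups) and Hipk3 (0.88, 0.65). For Timp2 they were Ctsb (r = 0.99, 0.99 within groups) and Bgn (0.99, 0.99) and Ctsb was itself saturated on most arrays of the comparisons named above.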

How the data were processed

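Total RNA of reconstructed bladder wall from 64 rats was labelled with cyanine 3 and hybridized to 1-colour Agilent rat arrays, and the deposited scanner files hold the spot intensity values that the authors extracted with Agilent Feature Extraction 12.0.1.1, background subtracted. From these, each array's log2 processed signals were set relative to the 75th percentile of its 58717 non-control spots, without spots marked as outliers, and spots of 1 probe were averaged. The deposited series table of processed signal was used only as an alternative. In 61 of its 64 columns the median log2 difference from the unscaled scanner signal was within 0.01. In seeded day 7 replicates 2, 3 and 4 it was -3.29, -3.30 and -3.30. The column of unseeded day 180 replicate 1 had no value for 26650 spots. Probes were named through their RefSeq accession (18758 of 30367). A gene was read from its brightest probe. Differences between the 8 groups were fitted in limma 3.58.1 (R 4.3.3) on all 64 arrays, with Benjamini-Hochberg adjustment over 30367 probes, and called at an adjusted p below 0.01 with a fold change above 1.5. "Well above background" and "saturated" are the scanner software's own spot calls. The number of arrays, 8 a group, limits the precision. The alternatives were other background corrections, normalizations, filters, fits and thresholds, and leaving out each array. The 10 genes, the 8 pathway lists, the 12 marker lists and the tests were chosen with earlier results of these data known. Of each list the called genes with the largest differences, up to 3 in each direction, were to be named, and Mmp16 was named beside that rule after its values were seen. The fits were tested on simulated data. Labels state 10 rats a group, of which 8 have arrays here. Of the genes that these rules select, 2 are not reported here by name, though the counts over lists and over all genes were made with them.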

Additional observations from a re-analysis of the deposited data

Results flagged for a closer look

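Of 80 sets of 8 arrays (10 genes in 8 groups), 11 held an array whose gap to its nearest neighbour divided by the range of the group exceeded Dixon's 95% critical value for 8 arrays. Chance alone gives such a gap in about 1 of 20 sets. Mmp12 had 4 of them, with 1.31 in seeded day 7 replicate 3 against a group median of 4.50, -5.86 in seeded day 90 replicate 3 against 1.94, -5.33 in unseeded day 90 replicate 5 against 1.68, and -5.80 in unseeded day 180 replicate 3 against 2.13. Seeded day 90 replicate 3 was also low for Mmp9 (-5.96 against a median of -3.08) and for Timp1 (1.32 against 2.83). Mmp7 was low in unseeded day 7 replicate 7 (0.030 against 3.63) and in unseeded day 90 replicate 5 (-5.18 against -0.36). Timp3 was high in seeded day 30 replicate 1 (-1.77 against -2.83). For the saturated Timp2 probe the scaled value was high in unseeded day 30 replicate 7 (5.80 against 5.35) and in unseeded day 90 replicate 8 (6.01 against 4.44).

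The graft difference itself differed between days in 3 of 60 tests by limma's interaction contrast. For Timp3 it was higher at day 90 than at day 30 by 1.25 (SE 0.28, adjusted p = 0.000776). At day 30, 1 of 8 seeded arrays lay above the unseeded median, and at day 90, 7 of 8 did. For Timp2 the scaled value gave 1.14 for day 90 minus day 7 (adjusted p = 0.000177) and 0.99 for day 90 minus day 30 (adjusted p = 0.00107), on a probe saturated on 60 of 64 arrays.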

How the results depend on the processing

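In 13 alternative settings of processing and testing and 1 chosen after seeing the data (without the 4 arrays that stand apart), and with each array left out in turn, no called difference of the 10 genes changed sign, while 27 uncalled differences did under at least 1 of those 14 settings. The number of members called between grafts at day 90 (2) became 1 with normexp, 0 in a fit of the 2 groups alone and 0 at a fold above 2. At day 7 (0) it became 1 with dim probes left out and 1 at an unadjusted p below 0.01, at day 180 (0) it became 1 at an unadjusted p below 0.01, and at day 30 (0) it became 1 without the 4 arrays. From day 90 to day 180 in unseeded grafts (2) it became 1 with normexp, 1 in a fit of the groups alone and 0 at a fold above 2, and from day 7 to day 30 in seeded grafts (2) it became 1 with normexp and 0 at a fold above 2. From day 30 to day 90 in seeded grafts (8), quantile normalization and median centring each lost Mmp9 and Mmp12. A fit of the groups alone lost Mmp12, and a fold above 2 lost Timp3. In unseeded grafts (7) that step gained Mmp14 with quantile normalization. It lost Mmp7 in a fit of the groups alone and without the 4 arrays, and Timp2 at a fold above 2. Called differences of the graft effect between days (3) became 6 at an unadjusted p below 0.01 and 5 without the 4 arrays. With 1 array left out, the counts ranged from 0 to 1 at day 7, 0 to 0 at day 30, 1 to 2 at day 90 and 0 to 0 at day 180 between grafts, from 3 to 4, 6 to 8 and 2 to 2 over the 3 steps in unseeded grafts, from 1 to 3, 6 to 8 and 0 to 0 in seeded grafts, and from 3 to 5 for the differences of the graft effect, highest without seeded day 90 replicate 6. The counts of this paragraph include the saturated Timp2 wherever the fit called it. From day 30 to day 90 in unseeded grafts the range of 6 to 8 is therefore around 7 with Timp2, or 6 without it. The lowest count of that step, without day 90 replicate 5, was the loss of Mmp7. The other scalings moved the median of all probes, which was -0.27 to 0.30 over the graft and day comparisons. The replicate number did not pair the samples, since at most 4 of 8 same-numbered correlations of a pair of groups were over 0.1. With the replicate number as a block, 2 members were called at day 90, and called differences of the graft effect went from 3 to 4, the added one being the saturated Timp2 between days 90 and 180 (-0.76, adjusted p = 0.00723). The cause of these shifts was not tested. Below the lowest signal well above background, which was higher on the arrays of days 90 and 180, many late values of Mmp3, Mmp9 and Mmp13 have no readable level, and above the ceiling of the scanner Timp2 gives none.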
